A study of Mus musculus with 96 samples.

Results

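Fast-twitch skeletal muscle fibres build their contractile apparatus from protein forms of their own, and 10 genes that encode such forms were followed here through 16 mouse tissues and both Scx genotypes. The genes were taken by symbol: the heavy chains Myh1, Myh2 and Myh4, the light chains Mylpf and Myl1, the troponin subunits Tnnt3, Tnni2 and Tnnc2, the calcium buffer Pvalb and the Z-disc protein Actn3. All 10 were rows of the deposited count table, out of 41575 gene symbols, of which 22493 had a count in any library. The table held 96 bulk RNA libraries, 3 from wild-type mice and 3 from Scx-/- mice in each tissue: muscle, bone, cartilage and adipose, the heart, lung, liver, kidney and spleen, the stomach, intestine, rectum and bladder, the cortex and hippocampus, and a tissue labelled vascular. All mice were 3 weeks old, and Scx-/- mice lack scleraxis, a transcription factor of tendon and other dense connective tissue. Whole organs were taken, so each library mixes all cell types of the dissected piece; the labels name no particular muscle and tie no library to a mouse.

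In a sarcomere, myosin heavy chains form the thick filament and carry the motor, light chains bind the neck of each motor, and the troponin complex on the thin filament lets calcium switch contraction on. Muscle fibres are typed by the heavy chain they hold. Myh7 marks slow, oxidative fibres, Myh2 encodes the type IIa chain, Myh1 the IIx chain and Myh4 the IIb chain of the fastest, most glycolytic fibres. Most fast proteins have a slow counterpart encoded elsewhere, such as Tnnt1 for Tnnt3, Tnni1 for Tnni2, Tnnc1 for Tnnc2 and Myl2 for Mylpf. Pvalb takes up calcium so that fast fibres relax quickly, and is also a standard marker of a class of cortical interneurons.

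Myh2, Myh1 and Myh4 lie next to each other on the plus strand of chromosome 11 (GRCm38), with gene bounds 67171027 to 67197517, 67200052 to 67224575 and 67238029 to 67260446. The 3 heavy chain promoters are shown because these genes are neighbours whose balance differed between muscle and cartilage, and Pvalb because it stood apart from the other 9 in kidney and cortex. Outside muscle Mylpf had a count in 78 of 90 libraries and Pvalb in 77. Each stretch comes from the RefSeq GRCm38.p6 promoter table and runs from base -200 to base -101 before the RefSeq start. Capitals mark, in the heavy chain genes, the longest run of letters that all 3 promoters share, and in Pvalb a match to the MEF2 core (CTANNNNTA, searched on both strands).

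Myh1, chr11:67199902-67200001, plus strand: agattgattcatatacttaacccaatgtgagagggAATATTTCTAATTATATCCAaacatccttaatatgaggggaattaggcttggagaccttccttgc
Myh2, chr11:67170827-67170926, plus strand: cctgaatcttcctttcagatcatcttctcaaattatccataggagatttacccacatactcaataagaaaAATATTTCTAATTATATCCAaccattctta
Myh4, chr11:67237612-67237711, plus strand: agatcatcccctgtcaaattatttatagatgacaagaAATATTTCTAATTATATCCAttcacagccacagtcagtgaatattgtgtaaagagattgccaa
Pvalb, chr15:78206501-78206600, minus strand: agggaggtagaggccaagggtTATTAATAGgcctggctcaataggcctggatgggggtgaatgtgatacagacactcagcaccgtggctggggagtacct

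The shared run is 20 bases long and holds a MEF2 core match. It occurs in 3 of the 32851 promoters in the table, those of Myh1, Myh2 and Myh4, with its first base at -165, -130 and -163. Promoters of 300 bases were found for 7 of the 10 genes, in 8 rows. A MEF2 core match lay in 6 of these 8 and in 21.0% of all promoters. An E-box (CANNTG, a pattern that is its own reverse complement) lay in 5 of the 8 and in 72.3% of all promoters. The letters TATAAA, which can overlap a MEF2 core match, lay in 4 of the 8 and in 13.6% of all promoters. None of the 8 held TCAGGTT, a MEF3 form found in 4.07% of all promoters. These are letter matches within 1 window, not sites shown to be bound.

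Library totals ran from 11244, in wild-type heart replicate 2, to 1658192 counts, with a median of 251640. The member genes were therefore read as CPM, counts divided by the library total and scaled to a common total, and each test below used scaling factors of its own. Muscle libraries held 30409 to 871531 counts, cartilage 205359 to 276018 and bone 42272 to 240564. The lowest total of these 3 tissues was that of wild-type muscle replicate 1, which had 4560 counts in the 10 genes against 80202 to 151067 in the other 5, and its fitted scaling factor was 1.75 against 0.818 to 0.973. Scx itself had few counts: 0, 11 and 7 in the wild-type muscle libraries and 0 in all 3 Scx-/- ones, 18, 2 and 0 in wild-type bone and 0 in Scx-/- bone, but 0, 7 and 1 in wild-type and 9, 0 and 0 in Scx-/- cartilage. How the allele was made is not given in the sources used here, so it is not known whether counts of Scx can check the labels, and the 9 counts lie in the cartilage library labelled Scx-/- replicate 1. Without that library, 9 members were called between cartilage and muscle, as with it, and 0 between genotypes in cartilage. With it, 0.496% of all genes were called lower and 1.08% higher in cartilage than in muscle, and 0.0222% between genotypes in cartilage. Wild-type replicate 2 stood apart in 1 globin gene: Hbb-bs, a beta-globin, was at 296 to 50719 CPM in wild-type replicate 2 of all 16 tissues, at 0 to 16.2 CPM in wild-type replicates 1 and 3 and at 0 to 94.6 CPM in the Scx-/- libraries. Without wild-type replicate 2 of both tissues, an alternative added after this was seen, 9 members were called between bone and muscle, 9 between cartilage and muscle and 10 between heart and muscle, as with it. With it, 2.77% of all genes were called lower than in muscle in bone, 0.496% in cartilage and 2.28% in heart. In cartilage 1.08% were called higher.

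The 10 genes were a major part of the muscle transcriptome. Summed over the 10, they made up 149956, 155762 and 169160 CPM in the wild-type muscle libraries and 177683, 173505 and 174375 CPM in the Scx-/- ones. On library totals every muscle library lay above every other library, and the 2 genotypes did not overlap in muscle. The size of these sums depends on the scaling. With TMM factors over all 96 libraries the means were 200984 CPM in wild-type and 337075 CPM in Scx-/- muscle. Cartilage came next, with 66807 to 91605 CPM over its 6 libraries (mean 78582 ± 8585, SD, n = 6), and bone came after it, with 16547 to 50388 CPM (37184 ± 12441, SD, n = 6). Next was rectum, at 59.8 to 6933 CPM. The ranges of muscle, cartilage, bone and rectum did not overlap between neighbours in this order. From rectum downward each tissue overlapped with the next, from lung (84.8 to 5328 CPM) to spleen, where the mean was 20.1 CPM.

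**Figure D1:**
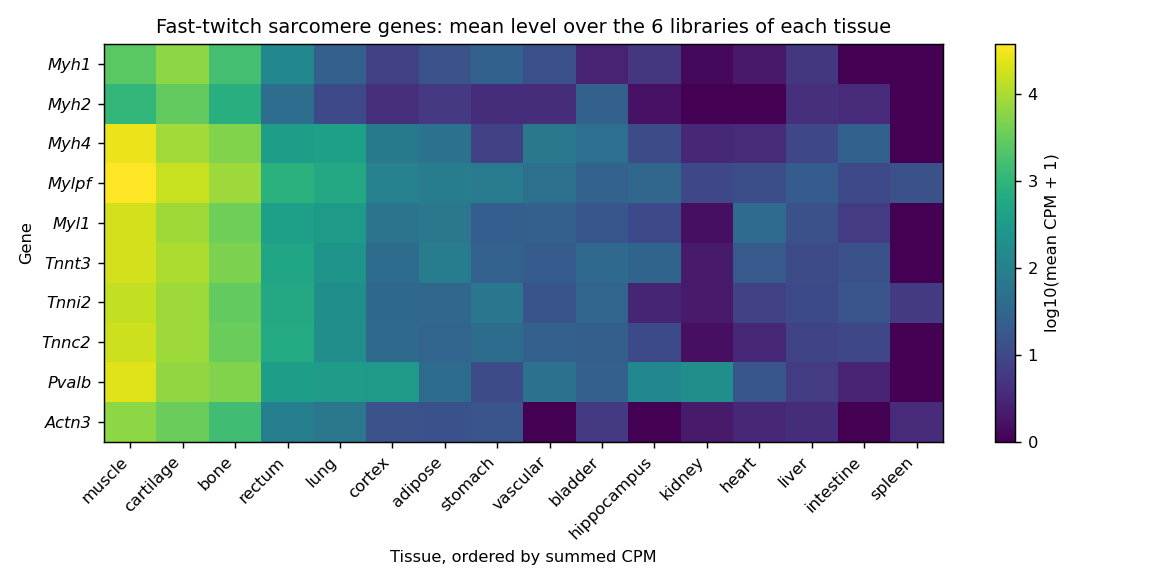
Mean level of each gene (rows) in each tissue (columns, ordered by the summed CPM of the 10 genes), as the log10 of the mean CPM of 6 libraries plus 1, both genotypes together. Muscle, cartilage and bone hold the highest values for all 10 genes, and Pvalb has a higher value than the other 9 in cortex, hippocampus and kidney.

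Markers of the dissected tissues were checked in the same libraries. Bone libraries held 43883 to 62337 CPM of 8 bone markers, and cartilage libraries 2116 to 14658 CPM of 8 cartilage markers, so both labelled tissues were present. Cartilage libraries also held 8594 to 39949 CPM of the bone markers. A list of 15 striated muscle genes shared by fast and slow fibres, led by Acta1, the skeletal actin, summed to 72146 to 86609 CPM in cartilage and to 12716 to 51240 CPM in bone, against 102385 to 135262 CPM in muscle. In a bulk library, fewer muscle fibres and less RNA per fibre cannot be told apart.

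Within wild-type muscle, the order of levels was read per kilobase of exon, as CPM per kb. Mylpf, the regulatory light chain of fast myosin, was highest at 45675 ± 9108 CPM per kb (SD, n = 3). Tnnc2, the calcium-binding troponin subunit, stood at 23230 ± 1611 and Pvalb at 22239 ± 3494 CPM per kb, and these neighbours differed by less than their spread. Tnnt3, which ties troponin to tropomyosin, and Tnni2, the inhibitory subunit, stood at 14905 ± 1902 and 14657 ± 211 CPM per kb, again within their spread. Myl1, the essential light chain, followed at 11627 ± 366 CPM per kb. Myh4 reached 4058 ± 540, Actn3 2040 ± 140, Myh1 412 ± 74.0 and Myh2 225 ± 65.2 CPM per kb. The paper speaks of libraries enriched for 3′ ends and the series' design text of Smart-seq2. With 3′-enriched libraries a level per kb would understate long transcripts such as the heavy chains, whose exons span 6016 to 6087 bases, so the place of these genes in the order is uncertain.

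The tissue order was not the same for every gene. In 8 of the 10 the highest mean was in muscle, with no overlap with the next tissue. Myh1 and Myh2 were highest in cartilage. For Myh1, the cartilage libraries held 5757, 4387 and 7568 CPM (wild type) and 5148, 6808 and 7681 CPM (Scx-/-). The muscle libraries held 3025, 2203 and 2295 CPM (wild type) and 3973, 2161 and 1746 CPM (Scx-/-). All 6 cartilage libraries were above all 6 muscle libraries, while the muscle and bone ranges overlapped. Myh2 stood at 3870.2, 2246 and 3009.7 CPM in wild-type and at 3358, 2683 and 2554 CPM in Scx-/- cartilage. In muscle it stood at 1743, 952 and 1407 CPM in wild type and at 1308, 458 and 486 CPM in Scx-/- mice, below cartilage in every library.

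Myh4 showed the opposite order. The type IIb chain stood at 20718, 25687 and 26831 CPM in wild-type muscle and at 29391, 35439.7 and 29802 CPM in Scx-/- muscle. In cartilage it was at 9733, 8657 and 5566 CPM in wild type and 9767, 11366 and 7257 CPM in Scx-/- mice. Bone held 2054, 4585 and 6259 CPM of it in wild type and 4198, 6220.3 and 7499 CPM in Scx-/- mice. Muscle thus stood clear of both skeletal tissues, whose own ranges overlapped.

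**Figure D2:**
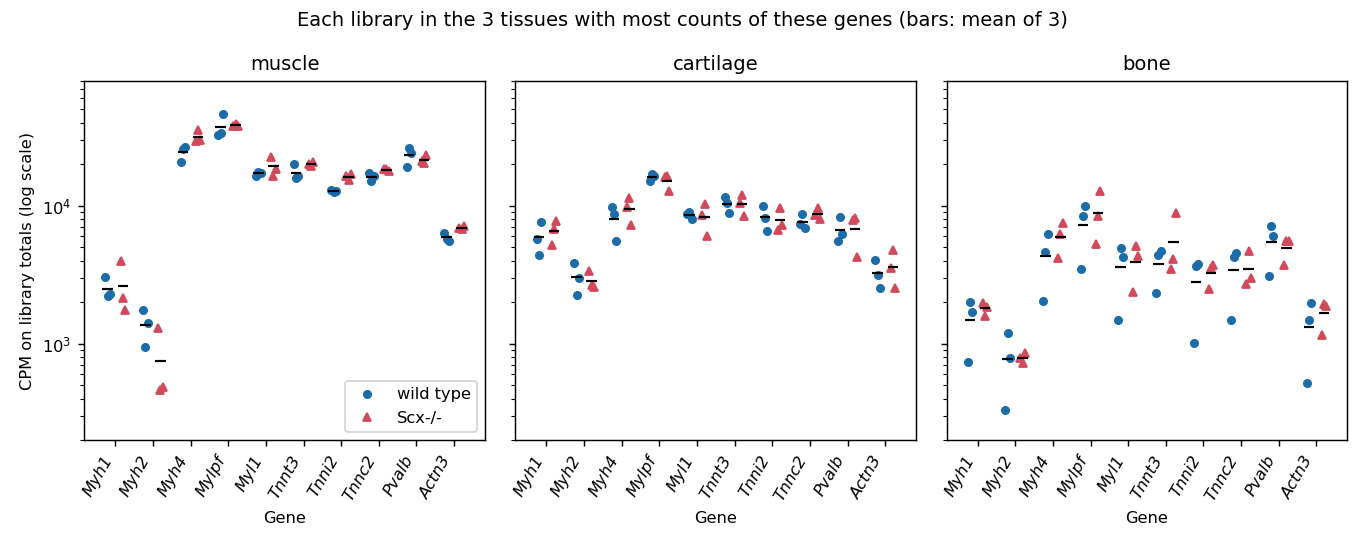
CPM of each gene in every muscle, cartilage and bone library, on a log axis, with circles for wild type, triangles for Scx-/- and a bar at the mean of 3 libraries. For Myh1 and Myh2 the cartilage points lie above all muscle points, and for the other 8 genes the muscle points lie highest.

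Whether these genes differed between tissues was put to the counts by edgeR's quasi-likelihood test over all genes, both genotypes together, with genotype as a covariate and Benjamini-Hochberg adjustment. Bone against muscle gave 9 of 10 genes called lower at an adjusted p under 0.05 and more than 2-fold, where 2.77% of all 15643 genes tested were called lower. Myh4 fell by 3.30 on the log2 scale (SE 0.261, adjusted p = 5.15e-33) and Myh1 by 1.44 (SE 0.360, adjusted p = 0.00332), while the other 7 called lay between -2.86 and -3.12. Myh2 was at -1.17 (SE 0.433, adjusted p = 0.102) and was not called, though without the shallow wild-type muscle replicate 1 it was (-1.22, adjusted p = 0.0297, where 3.43% of 15571 genes were called lower). The median of all genes in this comparison was -0.66, and that of the 10 was -3.01; with library totals they were 0.08 and -2.17, and the 10 stood at -2.27 with RLE size factors and with DESeq2. Other scalings kept the 10 genes below 0 but moved the calls over all genes from 277 higher and 433 lower to 599 higher and 202 lower with library totals, and Myh1 then stood at -0.65 (adjusted p = 0.275). Myh1 was also not called with RLE size factors (-0.75, adjusted p = 0.194), by DESeq2 (-0.75, adjusted p = 0.144) or in the wild-type libraries alone (-1.31, adjusted p = 0.579), and 8 of 10 genes were called under each of these settings. Over all 15643 genes, 211 were called lower with RLE size factors and 332 by DESeq2.

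Cartilage against muscle split the list. By edgeR 8 genes were called lower, where 0.496% of 15938 genes were called lower, and Myh2 was called higher, where 1.08% were. Pvalb fell by 2.14 (SE 0.193, adjusted p = 2.53e-25) and Myh4 by 2.07 on the log2 scale (SE 0.185, adjusted p = 1.27e-25). Mylpf stood at -1.67, Myl1 at -1.49, Tnnc2 at -1.45, Actn3 at -1.27, and Tnnt3 and Tnni2 both at -1.21. Myh2 rose 2.29-fold (log2 change 1.19, SE 0.272, adjusted p = 0.00152). Myh1 was 1.89-fold higher (log2 change 0.92, SE 0.233, adjusted p = 0.00829), under the 2-fold limit. That adjusted p was above 0.05 when Scx-/- muscle replicate 2, Scx-/- muscle replicate 3 or wild-type cartilage replicate 3 was left out (0.0581, 0.0755 and 0.0909), with log2 changes of 0.87, 0.83 and 0.81. Without Scx-/- muscle replicate 1 Myh1 passed the 2-fold limit and was called (1.15). The median of all genes was -0.19, and with library totals it was 0.21, which moved the calls over all genes from 172 higher and 79 lower to 266 higher and 34 lower. Both heavy chains were above 0 and the other 8 genes below 0 under each scaling. With library totals 5 members were called lower (0.213% of all genes) and 2 higher (1.67%): Tnnt3 (-0.86), Tnni2 (-0.84) and Actn3 (-0.91) came under the 2-fold limit and Myh1 (1.28) passed it. In the wild-type libraries alone 4 genes were called, Myh4, Mylpf, Tnnc2 and Pvalb, all lower, where 0.1% of 13942 genes were called lower and 0.33% higher, and the changes of the other 6 lay at -1.22 for Myl1, -1.05 for Actn3, -0.92 for Tnnt3, -0.84 for Tnni2, 1.02 for Myh2 and 1.08 for Myh1 (adjusted p of 0.0518 to 0.662).

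The same question can be asked without scaling between tissues, as the share of each gene in the counts of all 10. Of 20 such comparisons with muscle, 6 libraries against 6, 8 passed a Benjamini-Hochberg adjusted p of 0.05 in a two-sided exact permutation test, 5 in cartilage and 3 in bone. In cartilage Myh1 made up 8.08% ± 2.39 (SD, n = 6) of the 10-gene counts against 1.55% ± 0.477 in muscle, and Myh2 3.78% ± 0.766 against 0.647% ± 0.344. Myh4 made up 11.003% ± 1.72 against 16.7% ± 2.15, and Pvalb 8.48% ± 1.61 against 13.5% ± 1.91. None of these 4 shares overlapped between the tissues (exact permutation p = 0.00216 each, the smallest that 6 against 6 allow, adjusted p = 0.00722). The share of Tnnt3 was 13.0% ± 0.611 against 11.2% ± 1.28, with overlapping ranges (exact permutation adjusted p = 0.0433). Shares of 1 whole move together, so a higher share of 1 gene lowers the others.

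In bone the share of Myh1 was 4.58% ± 1.27 (SD, n = 6) and that of Myh2 2.14% ± 0.540, both above every muscle library (exact permutation adjusted p = 0.00722). The share of Myh4 was 13.7% ± 1.67 (exact permutation adjusted p = 0.0433), and Pvalb, at 14.5% ± 2.83, overlapped with muscle (exact permutation adjusted p = 0.563). With the libraries of at least 100000 counts alone, 3 of bone and 5 of muscle, the shares in bone were 5.08% ± 1.72 for Myh1, 2.17% ± 0.552 for Myh2 and 14.1% ± 1.42 for Myh4 (SD, n = 3). These 3 shares did not overlap with muscle. Their exact permutation p of 0.0357 is the smallest that 3 against 5 allow, and its adjusted value was 0.0794, so a lost call here says nothing of the difference. Only counts in the 10 genes enter these shares, 1909 to 6779 in a bone library.

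**Figure D3:**
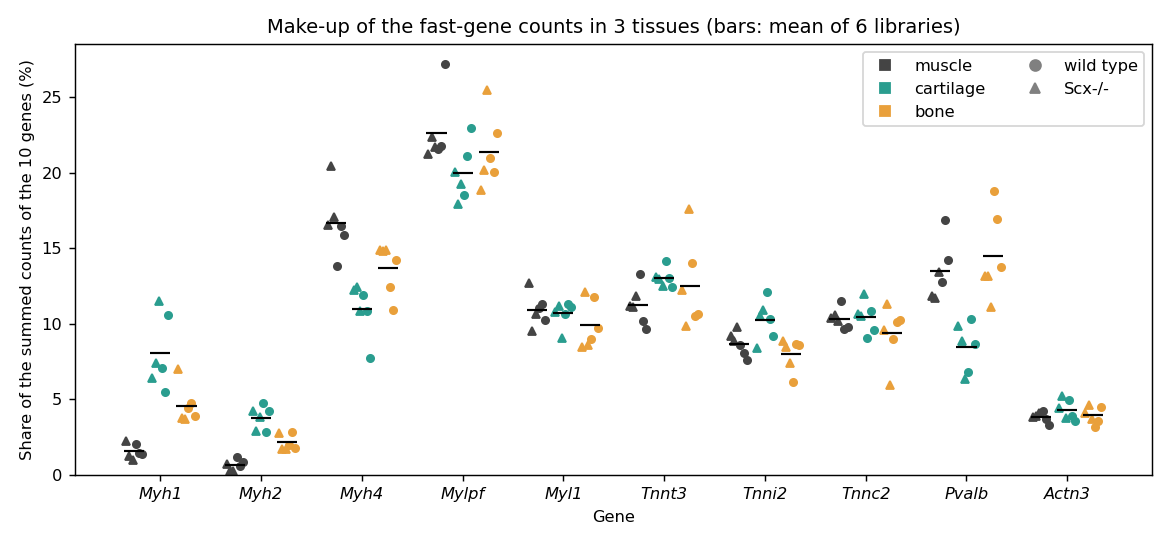
Share of each of the 10 genes in their summed counts, in percent, for muscle, cartilage and bone, with 1 point for a library (circles wild type, triangles Scx-/-) and a bar at the mean of 6 libraries. The bars of Myh1 and Myh2 are lowest in muscle and highest in cartilage, 1.55% and 8.08% for Myh1 and 0.647% and 3.78% for Myh2, and that of Myh4 is 16.7% in muscle and 11.003% in cartilage.

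Among the 6 sarcomeric heavy chains, which besides the 3 members are the slow Myh7, the embryonic Myh3 and the neonatal Myh8, the type IIb chain held 81.0% to 92.9% of the counts in muscle. Its mean was 87.6% ± 4.63 (SD, n = 6), against 65.2% ± 5.66 in bone and 46.7% ± 8.55 in cartilage. Myh1 rose from 8.22% ± 2.78 in muscle to 21.7% ± 4.37 in bone and 33.7% ± 7.78 in cartilage, and Myh2 from 3.52% ± 2.07 to 10.2% ± 2.72 and 15.9% ± 2.75. For all 3 the ranges of muscle did not overlap with either tissue (exact permutation p = 0.00216, adjusted p = 0.00371). The slow chain Myh7 held 0.473% ± 0.542 in muscle, 2.53% ± 1.37 in bone (exact permutation adjusted p = 0.0162) and 3.24% ± 0.967 in cartilage (exact permutation adjusted p = 0.00371). Reads can be split where these genes share sequence: of the 50-base windows in the last 1000 bases, 33.0% in Myh1, 33.5% in Myh2 and 20.4% in Myh4 also occur in another heavy chain. In Myh8 14.5% do, in Myh3 5.57% and in Myh7 0%.

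Heart, the other striated muscle in the series, barely expressed the list. Its libraries held 8093 to 22464 CPM of 8 cardiomyocyte markers, and 37.7 to 178 CPM of the 10 fast genes in sum. All 10 were called lower in heart than in muscle by edgeR, where 2.28% of 15771 genes were called lower. Myl1 was the highest, at 40.9, 0 and 81.7 CPM in wild type and 82.2, 6.26 and 21.5 CPM in Scx-/- hearts, a log2 change of -9.07 from muscle (SE 0.533, adjusted p = 7.51e-62). The other 9 had 0 to 15 counts each over the 6 heart libraries, out of 1297135. Myh2 had 0, which allows up to 2.31 CPM over the group, and no fold is given for it or for the genes with 1 to 3 counts.

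In the remaining tissues the genes were low, and Pvalb stood apart from the other 9. In kidney Pvalb had 743 of the counts and the other 9 genes 0 to 24 each, over 6 libraries with 3583174 counts. Its level there was 265, 269 and 153 CPM in wild type and 114, 111 and 194 CPM in Scx-/- mice. The same libraries held 3656 to 4813 CPM of 6 markers of the distal convoluted tubule, a nephron segment where Pvalb is known to be made. In cortex Pvalb stood at 202, 475 and 271 CPM in wild type and at 353, 179 and 205 CPM in Scx-/- mice, and in hippocampus at 58.6 to 231 CPM. In sum, 8 parvalbumin interneuron markers came to 746 to 993 CPM in cortex and to 565 to 1273 CPM in hippocampus.

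Pvalb made up 48.2% ± 21.2 (SD, n = 6) of the 10-gene counts in cortex against 13.5% ± 1.91 in muscle, with no overlap (exact permutation p = 0.00216, adjusted p = 0.0108 over 30 tests in cortex, lung and rectum added after the values were seen). In cortex 6 more shares passed, those of Myh4, Mylpf, Tnnt3, Tnni2, Tnnc2 and Actn3, all lower. A higher share of Pvalb lowers the others, so these 6 are not separate differences. Wild-type cortex replicate 1, where Pvalb had 335 of 370 counts, stood apart, and without it Pvalb made up 39.7% ± 4.98 (SD, n = 5). In lung only the share of Tnnc2 differed (6.49% ± 3.46 against 10.3% ± 0.666, exact permutation adjusted p = 0.0244), and in rectum no share passed. Across the 32 tissue and genotype groups, the log2(CPM + 1) of each member correlated with the mean of the other 9 at Pearson's r of 0.946 to 0.991, apart from Pvalb at 0.868. These groups share the large gap between muscle, cartilage and bone on one side and the other tissues, so r is a description of that gap.

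**Figure D4:**
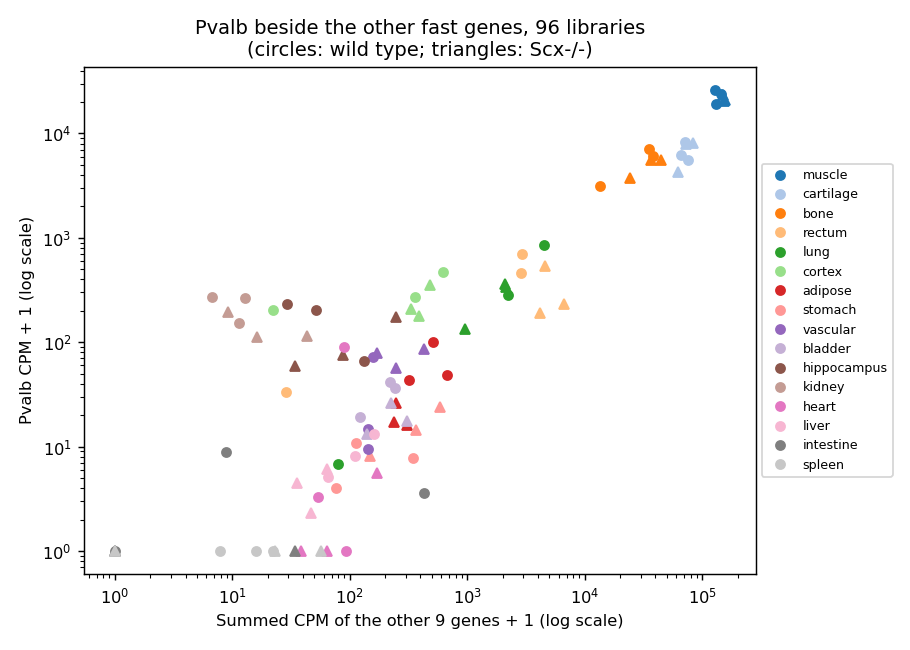
Pvalb CPM plus 1 against the summed CPM plus 1 of the other 9 genes in each of the 96 libraries, both on log axes, coloured by tissue, with circles for wild type and triangles for Scx-/-. The kidney libraries lie at the upper left, with 111 to 269 CPM of Pvalb beside low levels of the other 9 genes.

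Single libraries set several of the low values. In rectum the wild-type libraries held 13, 301 and 167 counts in the 10 genes, and in lung 29, 249 and 134, with the first library the low one in both. Wild-type muscle held 4560, 135751 and 80202, again with the first library lowest. In Scx-/- mice lung held 298, 248 and 266 counts, rectum 405, 1600 and 1378, and muscle 149741, 134056 and 151067. Whether counts in other tissues follow those of the same-numbered muscle library was not tested. In intestine Myh4 had 58 counts over 6 libraries, with 0 to 150 CPM in a library, while Myh1 and Actn3 had 0 of 719642 counts, which allows up to 4.17 CPM. In spleen only Mylpf, Tnni2 and Actn3 had any count (21, 6 and 3 of 1549081), and the 7 others allow up to 1.94 CPM. All 10 genes had a count in 42 of the 96 libraries, among them all 18 of muscle, cartilage and bone, and in 4 libraries none had.

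The second question of the design was whether loss of Scx changed these genes. In muscle, Myh4 and Tnni2 were higher in all 3 Scx-/- libraries than in all 3 wild-type ones. Tnni2 stood at 12924, 12564 and 12811 CPM in wild type and at 16351, 15315 and 17022 CPM in Scx-/- muscle. Actn3, the Z-disc actinin of fast fibres, stood at 6347, 5751 and 5575 CPM against 6849, 6786 and 7153 CPM, and Tnnc2 at 17232, 15024 and 16528 against 18502, 18342 and 17752 CPM, also without overlap. Tnnt3 stood at 19928, 15884 and 16327 CPM against 19915, 19326 and 20631 CPM, and Pvalb at 19139, 26232 and 24080.5 against 21027, 20323 and 23396 CPM, both overlapping. With 3 against 3 libraries a lack of overlap corresponds to an exact permutation p of 0.1 at best. The share of all genes without overlap is not given here, so these orders are descriptions.

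None of the 10 was called between genotypes in muscle by edgeR (0 of 10, against 0.0482% of 14532 genes) or by DESeq2 (0.0826%). The calls over all genes, 7 here, were 15 with RLE size factors (0.103%) and 32 with library totals (0.22%), 31 of them lower. At an unadjusted p under 0.05 edgeR passed 3 genes, where 4.65% of all genes passed, and DESeq2 passed 0. These 3 were Tnni2 (log2 change 0.72, SE 0.302), Myh4 (0.70, SE 0.275) and Tnnt3 (0.61, SE 0.292), each with an adjusted p of 0.771. The other values were Actn3 0.62, Tnnc2 0.55, Myl1 0.53, Myh1 0.51, Mylpf 0.36, Pvalb 0.22 and Myh2 -0.40, with SEs of 0.264 to 0.455. The median of the 10 was 0.54 and that of all genes 0.24. With library totals these medians were 0.16 and -0.01, and Pvalb changed sign to -0.10. Without the shallow wild-type replicate 1, Tnni2 was called (0.49, edgeR adjusted p = 0.0387), 1 of 10, while the share of all genes called rose to 0.409% of 14421, 59 genes.

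The balance among the 10 was also compared between genotypes, where 3 against 3 cannot give an exact p below 0.1. In muscle the share of Myh4 was 15.4% ± 1.40 (SD, n = 3) in wild type and 18.02% ± 2.10 in Scx-/- mice, and that of Tnni2 8.09% ± 0.523 and 9.26% ± 0.470, without overlap (exact permutation p = 0.1 each). Within the heavy chains, Myh2 held 4.87% ± 1.79 in wild type and 2.16% ± 1.40 in Scx-/- muscle, with overlapping ranges (exact permutation p = 0.2). In bone the share of Myh4 was 12.5% ± 1.68 and 14.9% ± 0.0290, and that of Pvalb 16.5% ± 2.55 and 12.5% ± 1.21 (exact permutation p = 0.1 each).

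In bone and cartilage no member was called between genotypes by edgeR or DESeq2, and none had an unadjusted p under 0.05 in either tool. Over all genes, 0% of 12344 were called in bone and 3.54% passed unadjusted, and in cartilage 0.0222% of 13534 and 3.21%. Of the 10, 9 lay above 0 in bone, from Pvalb at -0.04 to Myh4 at 0.55 (SE 0.338), with a median of 0.32 against 0.08 for all genes. In cartilage 7 lay above 0, from Myh2 at -0.04 to Myh4 at 0.30 (SE 0.223), with a median of 0.06 against 0.07 for all genes; with library totals 5 did, Myl1 and Tnnt3 changing sign. The 95% interval for Myh4 ran from -0.11 to 1.21 in bone and from -0.14 to 0.73 in cartilage, so a log2 change of 1 lay within the first and outside the second.

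Whether the genotype effect differed from that in muscle was tested directly, by an interaction term. No member was called by edgeR in bone or in cartilage, and none had an unadjusted p under 0.05; DESeq2 was not run on it. Over all 16560 genes, 0.00604% were called for bone and 0% for cartilage, and 5.56% and 4.87% passed unadjusted. For Tnni2 the effect in cartilage was below that in muscle (log2 difference -0.75, SE 0.481, edgeR adjusted p = 1.00), and for Myh2 it was 0.34 (SE 0.690). Intervals of this width do not show that the tissues respond alike.

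**Figure D5:**
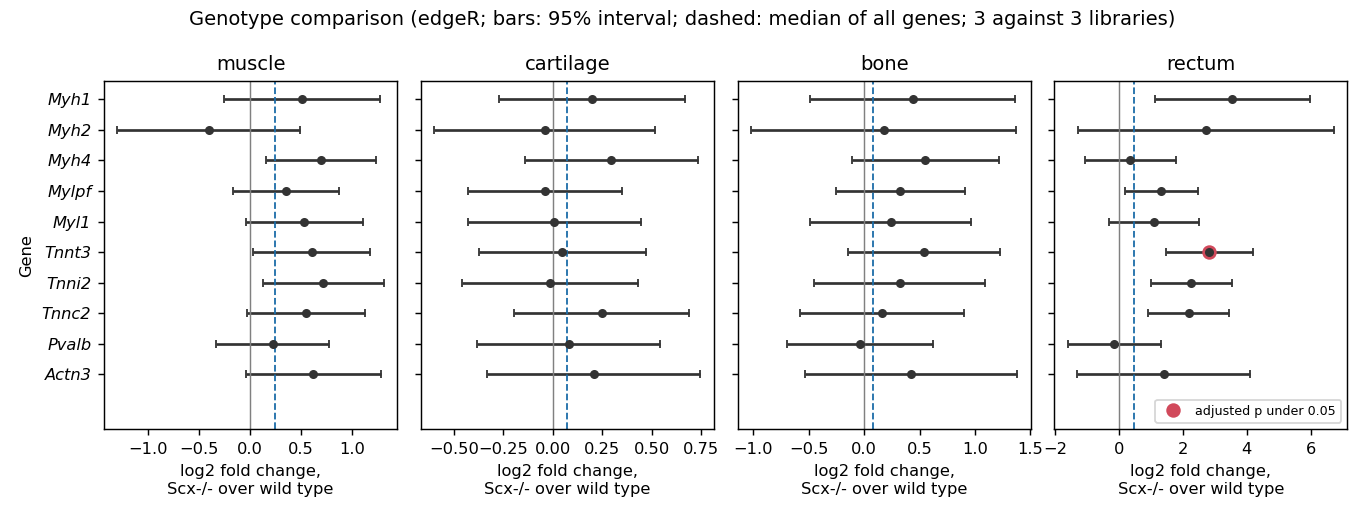
Log2 fold change of each gene, Scx-/- over wild type, in muscle, cartilage, bone and rectum, from edgeR with 95% intervals, a grey line at 0 and a dashed line at the median of all genes; the 4 horizontal axes differ in range. In muscle 9 of 10 points lie above 0 and 3 intervals exclude it, and in rectum the called gene, Tnnt3 at 2.83, is ringed.

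Rectum was the 1 tissue with a called member. Tnnt3 stood at 4.60, 241 and 201 CPM in wild type and at 711, 858 and 974 CPM in Scx-/- rectum. It rose 7.09-fold (log2 change 2.83, SE 0.694, edgeR adjusted p = 0.0121), 1 of 10 where 0.441% of 14292 genes were called. Tnni2 stood at 4.60, 421 and 281 CPM against 724, 1304 and 732 CPM (2.26, SE 0.646, adjusted p = 0.0909), and Tnnc2 at 0, 277 and 543 CPM against 851, 1222 and 825 CPM (2.18, SE 0.643, adjusted p = 0.133). All 3 troponin genes were higher in every Scx-/- library than in every wild-type one. The share of all genes that separate in this way is not given here, so the order is a description. Wild-type replicate 1 had 1, 1 and 0 counts in Tnnt3, Tnni2 and Tnnc2. Myh1 was at 3.55 (SE 1.24, adjusted p = 0.466) and Mylpf at 1.32 (SE 0.581), and these 5 genes passed an unadjusted 0.05, as 5.04% of all genes did. Pvalb was at -0.15 (SE 0.741). The median of the 10 was 1.79 against 0.45 for all genes.

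The rectum result moved with its libraries. DESeq2 called 0 of 10 (Tnnt3 2.62, adjusted p = 0.197), where it called 0.483% of all genes, with 3 at an unadjusted p under 0.05, as 4.23% of all genes had. Tnnt3 was not called by edgeR without wild-type replicate 1, with its 13 member counts (2.20, adjusted p = 0.486), nor without Scx-/- replicate 2 (2.78, adjusted p = 0.318) or Scx-/- replicate 3 (2.63, adjusted p = 0.408). Tnni2 was called without Scx-/- replicate 1 (2.48, edgeR adjusted p = 0.00565) and without wild-type replicate 2 (3.26, adjusted p = 0.0452), and Tnnc2 without wild-type replicate 3 (3.04, adjusted p = 0.019). When 1 library was left out Myh1 ran from 2.65 to 4.41 and Mylpf from 0.73 to 2.21, neither called in the full comparison. A list of 6 smooth muscle markers summed to 19030 to 21971 CPM in the wild-type rectum libraries and to 1474 to 16670 CPM in the Scx-/- ones, with none of the 6 at 0 in either genotype, and 15 shared striated muscle genes to 4111 to 6566 CPM against 4129 to 10664 CPM, some of which, such as Tpm2, smooth muscle also makes. Other muscle genes called higher in Scx-/- rectum by edgeR, where 0.399% of all genes were, were Acta1 (log2 change 1.74, SE 0.457, adjusted p = 0.0335), Ckm (2.44, SE 0.578, adjusted p = 0.0075), the neonatal heavy chain Myh8 (6.68, SE 1.01, adjusted p = 1.22e-08) and Myl3 (6.04, SE 1.60, adjusted p = 0.0165). Sln, which encodes the calcium pump inhibitor sarcolipin, was also called higher (edgeR adjusted p = 2.51e-07), at 0 CPM in all 3 wild-type libraries and at 12.7, 646 and 672 CPM in the Scx-/- ones. Against a floor of 3 counts over the wild-type group it was at least 67.6-fold higher. Of the alternatives that tested them, Myh8 and Sln were called in 10 of 10, Myl3 in 6 of 11, Ckm in 4 of 11 and Acta1 in 1 of 11. Their part in the result was not tested.

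In the other 12 tissues no member was called between genotypes by edgeR or DESeq2. The share of all genes called by edgeR was 0.0091% in adipose, 0.112% in bladder, 0% in cortex, 0.0391% in heart, 0.00708% in hippocampus and 0% in intestine. It was 0.195% in kidney, 0.442% in liver, 0.00727% in lung, 0.0072% in spleen, 0.0609% in stomach and 0.0329% in vascular tissue. At an unadjusted p under 0.05 edgeR passed 1 member in these 12 tissues, Pvalb in kidney (log2 change -0.84, SE 0.387, adjusted p = 0.791), where 5.26% of all genes passed, and DESeq2 passed 0.

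The slow counterparts of these genes were read beside them in muscle. Of 10 slow sarcomere genes, 1 was called lower in Scx-/- muscle by edgeR (3 by DESeq2) and none higher, 6 were lower and none higher at an unadjusted p under 0.05, and the median was -2.19. Over all 14532 genes, edgeR called 0.0344% lower and 0.0138% higher, DESeq2 called 0.0688% lower, and at an unadjusted p under 0.05 by edgeR 2.46% were lower and 2.19% higher. The called gene was Myl2, the slow regulatory light chain, at 1085, 201 and 875 CPM in wild type and at 77.1, 32.4 and 20.8 CPM in Scx-/- muscle (log2 change -3.52, SE 0.636, adjusted p = 1.06e-04); it was called in 8 of 11 alternatives, but not without Scx-/- replicate 2, Scx-/- replicate 3 or wild-type replicate 3, with an adjusted p of up to 0.176. Tnnt1 was at -2.64 (SE 0.642, adjusted p = 0.0614), Myl3 at -2.66 (SE 0.649, adjusted p = 0.0625), Tnnc1 at -2.42 (SE 0.734), Tnni1 at -2.19 (SE 0.747) and Myh7 at -2.19 (SE 0.708). Of 19 other fast-fibre genes, 17 were tested and none was called by edgeR or DESeq2; at an unadjusted p under 0.05, 7 were higher by edgeR and 3 by DESeq2 (1.33% of all genes by DESeq2), and none was lower. The median was 0.78. Ckm, the muscle creatine kinase, was at 0.78 (SE 0.265) and Atp2a1, the fast calcium pump, at 0.67 (SE 0.292).

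The remaining muscle lists had no call by edgeR in this comparison. Over all 14532 genes, edgeR had 2.19% higher and 2.46% lower at an unadjusted p under 0.05. DESeq2 had 1.33% higher at that limit and called 0.0688% lower. Of 15 shared striated muscle genes, 2 were higher and 1 was lower at an unadjusted p under 0.05, and DESeq2 called 1 lower. The most abundant were Acta1 at 0.28 (SE 0.235), Ttn, the sarcomeric spring titin, at 0.37 (SE 0.322) and Tpm2, a tropomyosin, at 0.62 (SE 0.323). Of 5 developmental sarcomere genes 1 was higher at an unadjusted p under 0.05 in both tools; the embryonic heavy chain Myh3 stood at -0.09 (SE 1.19) and the cardiac actin Actc1 at -0.15 (SE 0.321). Of 16 regulators of fibre type, 1 was higher at an unadjusted p under 0.05 in both tools, and the transcription factors Mef2c, Mef2d and Nfix stood at 0.19, 0.12 and 0.50 (SEs of 0.541, 0.727 and 0.632). Actn2, the actinin made in all fibres, stood at 0.44 (SE 0.474) and Mybpc1, slow myosin-binding protein C, at 0.46 (SE 0.489), so both of these slow-list genes lay above 0.

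Each fast gene was set against its slow counterpart within a library, which needs no scaling. The slow form Tnnt1 made up 2.10%, 1.70% and 4.11% of the Tnnt3 and Tnnt1 counts in wild-type muscle and 0.451%, 0.234% and 0.212% in Scx-/- muscle. For Tnnc1 beside Tnnc2 the slow share was 3.14%, 1.05% and 1.43% against 0.237%, 0.281% and 0.117%, and for Myl2 beside Mylpf 3.24%, 0.589% and 1.87% against 0.204%, 0.0833% and 0.0549%. Tnni1 beside Tnni2 gave 1.01%, 0.869% and 2.88% against 0.462%, 0.211% and 0.0407%. All 4 slow shares were lower in every Scx-/- library (exact permutation p = 0.1, the smallest possible). Myl3 beside Myl1 overlapped between genotypes (exact permutation p = 0.3). In cartilage the slow share of the troponin I and troponin C pairs was higher, not lower, in every Scx-/- library, at 3.93% ± 1.32 against 2.21% ± 0.584 (SD, n = 3) for Tnni1 and 3.81% ± 1.23 against 2.00% ± 0.765 for Tnnc1 (exact permutation p = 0.1 each). In bone the Myl3 share beside Myl1 was lower in every Scx-/- library, at 4.73% ± 1.96 against 10.8% ± 1.85 (SD, n = 3, exact permutation p = 0.1), and the other 4 pairs overlapped. Of the 15 pairs and tissues compared, none can pass 0.05 in this design.

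Markers of other tissues were read in the same muscle libraries. A list of 6 tendon markers summed to 178 to 738 CPM in wild-type muscle and to 28.5 to 104 CPM in Scx-/- muscle, with 4 of the 5 tested at an unadjusted p under 0.05, all lower, and 1 called, Fmod, the matrix protein fibromodulin (33 to 276 CPM against 2.37 to 7.77 CPM), in 6 of 11 alternatives. Over all 14532 genes, edgeR had 2.46% lower at an unadjusted p under 0.05 and called 0.0344% lower. The list includes Scx itself, the gene that Scx-/- mice lack, so it is not independent of genotype. A list of 8 bone markers, of which 5 were at 0 in wild-type and 4 in Scx-/- muscle, summed to 4033 to 6946 CPM against 1339 to 2728 CPM, with none called. Sln was called higher in muscle too, at 98.7, 24.1 and 105 CPM against 405, 1033 and 589 CPM (log2 change 3.55, SE 0.621, edgeR adjusted p = 5.00e-05), and in 10 of 11 alternatives. The part of other tissue in the muscle differences was not tested. Hbb-bs, a beta-globin, and Ucp1, the brown fat uncoupling protein, were also called lower; Hbb-bs had counts in wild-type replicate 2 alone (446 CPM) and Ucp1 in wild-type replicates 2 and 3 (260.5 and 21.1 CPM). Hbb-bs was called in 6 of the 8 alternatives that tested it, but not with a replicate block or without wild-type replicate 1, and Ucp1 in 7 of 10, but not by DESeq2 (adjusted p = 0.690), with a replicate block or without wild-type replicate 2.

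The cartilage and bone comparisons with muscle can be read against the same lists. In cartilage 10 of 17 other fast-fibre genes were called lower by edgeR and none higher (median -1.41), where 0.496% of all genes were called lower and 1.08% higher, whereas of 10 slow genes none was called lower and 1 higher, Myh7 (log2 change 1.96, SE 0.435, adjusted p = 9.34e-04), with a median of 0.89. Of 15 shared striated muscle genes 2 were called lower and 1 higher (median -0.42). In bone 15 of the 17 fast-fibre genes, 2 of 10 slow genes and 10 of 15 shared genes were called lower, and none higher, with medians of -2.73, -0.89 and -2.48, where 2.77% of all genes were called lower and 1.77% higher.

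The genes whose pattern was most like the mean of the 10, over 32 groups and 17412 genes ranked by Pearson's r of log2(CPM + 1), were Atp2a1 (r = 0.987), Neb, Mybpc2, Myoz1, Myot, Ampd1, Mybpc1, Ryr1, Mylf-ps and Cacng1 (r = 0.937). Atp2a1 stood at 17433 CPM in wild-type and 20279 CPM in Scx-/- muscle, and at 9671 CPM in wild-type cartilage. Of the 10, 6 stood on the list of other fast-fibre genes, 2 on the list of shared striated genes and 1, Mybpc1, on the slow list. Mylf-ps is a pseudogene. Of the 372 windows of 50 bases in its transcript, 242 occur in a transcript of Myl1 and 0 in one of Mylpf, so reads may be split between Mylf-ps and Myl1 and both counts are uncertain. Ranking by Spearman's rho kept 7 of the 10, and using the 16 wild-type groups alone kept 9. Among the members, 4 overlap a gene on the opposite strand in the annotation: Myh1 with Myhas, Myh2 with 9430073C21Rik, Tnnt3 with Prr33 and Tnnc2 with Ube2c. Whether strand was used in counting is not given in the sources used here, and if it was not, reads of these partners cannot be told from those of the members. Prr33 and Ube2c had 348 and 11 counts in all in the muscle libraries, and Myhas and 9430073C21Rik have no row of their own in the counts used here.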

How the data were processed

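The deposited table held raw counts of reads per gene symbol, which the authors made by mapping to mm10 with Bowtie2 at default settings and counting with HTSeq; neither versions nor the strand setting were found in the sources. The paper speaks of 3′-enriched libraries, the series' design text of Smart-seq2. From these counts CPM was computed on library totals. Genes at 0 in every library of a comparison were removed, and edgeR 4.0.16 (TMM, robust quasi-likelihood test, R 4.3.3) was run on all genes per tissue for genotype, on 2 tissues with genotype as a term, and on 3 tissues for the interaction. Calls were a Benjamini-Hochberg adjusted p under 0.05, between tissues also a fold above 2. Shares were compared by exact permutation tests (two-sided, SciPy 1.17.1). DESeq2 1.42.0, RLE factors, library totals, filterByExpr, a replicate block and leaving out each library were alternatives; the shares in lung, rectum and cortex, leaving out libraries of rectum and lung, and leaving out wild-type replicate 2 of both tissues, were added after seeing the data. Over all 96 pairs of libraries of a group, chi-square per degree of freedom was 6.93 to 24.2, so none repeated another within sampling noise. The labels tie no library to a mouse or batch, so p-values measure the spread between libraries, which may be technical, and intervals of a count cover counting error only.

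The members and the gene lists were chosen with earlier results of these data known. Besides the members, the rule for names took the 3 genes of each muscle list highest in wild-type muscle, the list genes called, the 10 genes most alike in pattern, and Scx; the slow partners of members were named after their values were seen. The edgeR steps were tested on simulated data.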

Additional observations from a re-analysis of the deposited data

How the results depend on the processing

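Of the 10 genes, those called between genotypes in muscle numbered 0, with a range of 0 to 1 when 1 library was left out (1 without wild-type replicate 1). In rectum the count of 1 became 0 with filterByExpr and 0 with DESeq2, and ran from 0 to 2 when 1 library was left out. Between cartilage and muscle 9 genes were called (9 to 10 when 1 library was left out), and 4 in the wild-type libraries alone, where the other 6 kept their sign with changes of 0.84 to 1.22 in size. The 3 shares that passed in bone became 0 with libraries of at least 100000 counts, where 3 against 5 libraries cannot give an exact p below 0.0357. With these libraries their ranges did not overlap with muscle, while over all libraries that of Myh4 did. Scaled with TMM factors over all 96 libraries, the mean summed level in muscle was 200984 CPM in wild type and 337075 CPM in Scx-/- mice. Signs changed in 11 cases in bone, 22 in cartilage, 2 in muscle and 4 in rectum between genotypes, and in 3 and 3 of the interactions, over all 10 genes and alternatives; the genes concerned were called in 0 of these cases. Of the genes whose values are given above, these were Pvalb between genotypes in muscle (-0.10 with library totals, -0.080 to 0.42 when 1 library was left out), in bone (-0.27 to 0.16) and in rectum (-0.70 to 0.73), and in cartilage Myh2 (-0.24 to 0.22) and Mylpf (-0.10 to 0.069); Myl1 in cartilage, at 0.0077, was below 0 under 8 alternatives, down to -0.17. With a replicate block Pvalb stood at 0.0047 in bone and at 0.21 in rectum. Deviations of libraries with the same replicate number correlated at -0.119 to 0.029 between genotypes and -0.079 to 0.065 between tissues, below the 0.1 at which the numbers would be taken to pair the libraries, and between genotypes every library was closest to its own number in 1 of 16 tissues, hippocampus; between tissues 9 of 12 libraries were for cartilage and muscle, 6 of 12 for heart and muscle and 0 of 12 for bone and muscle. Hbb-bs, highest in wild-type replicate 2 of all 16 tissues, does link that number across tissues, and whether same-numbered libraries share a source was not tested. A replicate block left the counts of called members as they were, 9 for bone, 9 for cartilage and 10 for heart against muscle and 1 in rectum. Over all genes it moved the calls from 710 to 406 for bone and from 622 to 344 for heart against muscle, and between genotypes from 63 to 39 in rectum, 7 to 3 in muscle, 5 to 1 in heart, 3 to 0 in cartilage, 1 to 0 in adipose, 1 to 2 in hippocampus and 0 to 2 in cortex. The causes of these changes were not tested. Depth limits the tissues in which members had few counts, such as heart, kidney apart from Pvalb, intestine and spleen.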

Other observations

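In heart, where the 10 fast genes were near 0, 2 genes of the fibre lists were called between genotypes by edgeR. Myh7, the slow and beta-cardiac heavy chain, stood at 68.2, 0 and 3.55 CPM in wild-type and at 899, 3116 and 3480 CPM in Scx-/- hearts (log2 change 5.97, SE 0.907, adjusted p = 5.07e-07), and was called in 10 of 11 alternatives, but not without wild-type replicate 2 (adjusted p = 0.873). That library is the shallowest of the series, with 11244 counts, so its 0 allows up to 267 CPM. Casq1, the fast-fibre calsequestrin, stood at 161, 711 and 170 CPM in wild-type hearts, 71, 8 and 48 counts, and had no count in the Scx-/- ones (edgeR adjusted p = 0.00302). Its call was lost without any 1 Scx-/- replicate and with a replicate block, 4 of 11 alternatives, with an adjusted p of up to 0.470.

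In cartilage, Hba-a1, an alpha-globin, was called higher by edgeR in Scx-/- mice (1.76, SE 0.392, adjusted p = 0.047) in 4 of 11 alternatives, and Ucp1 lower (-4.18, SE 0.954, adjusted p = 0.047) in 3 of 10; by DESeq2 neither was (adjusted p = 0.998). Ucp1 was also called lower by edgeR in Scx-/- vascular tissue (-2.03, SE 0.291, adjusted p = 1.71e-08), in 9 of 11 alternatives, with DESeq2 (adjusted p = 0.133) and filterByExpr as the exceptions. The paper found brown fat terms among the vascular-specific genes of both genotypes, read them as contamination and left this tissue out. Calb1, a marker of the distal convoluted tubule, was called lower in Scx-/- kidney (-1.06, SE 0.271, edgeR adjusted p = 0.0484), but in 1 of 11 alternatives.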
